A study of Mus musculus with 6 samples.

Results

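Fatty acid oxidation and peroxisomal genes are the 34 genes, listed by symbol, that encode the carnitine shuttle, mitochondrial and peroxisomal beta-oxidation enzymes, peroxins and genes linked to the peroxisome proliferator-activated receptors (PPARs). All 34 matched a row among the 19865 gene symbols of the deposited count tables. They were examined in lung fibroblasts that carried trSrebf1, an active Srebf1c, which is a transcription factor of lipid synthesis, and in fibroblasts that carried a control vector, with 3 libraries of each. Donor cells were primary lung fibroblasts of C57BL/6 background from mice with a Col1a2-GFP transgene, a green reporter driven by a collagen promoter. Both constructs were introduced by retrovirus and were marked with hLNGFR, a human surface receptor. For both groups the hosts were C57BL/6 mice given 2 mg/kg of bleomycin, which injures the lung, and donor cells were delivered into the trachea on day 5 after it. Doxycycline, which switches on trSrebf1, is recorded at day 7 for the libraries of both groups. Sorting on day 10 kept live reporter-positive, marker-positive cells that lacked CD45, CD31, EpCAM, Ter119 and CD146, at 10000 cells per library. The sources used here give neither ages nor whether replicate libraries derive from different mice or cultures, so the spread behind each p-value is that among libraries and may be technical only. The question is what active Srebf1 changes in fibroblast expression within an injured lung.

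Fatty acids are burned in mitochondria after their acyl groups are coupled to carnitine, carried across the inner membrane and returned to coenzyme A. Each turn of beta-oxidation then removes a short carbon unit through a dehydrogenase, a hydratase, a further dehydrogenase and a thiolase, and the electrons of the initial step pass to the respiratory chain through the electron transfer flavoprotein. Peroxisomes run a parallel pathway for very long and branched chains, which starts with an oxidase that makes hydrogen peroxide. PPARs are nuclear receptors that bind fatty acids and activate many of these genes, whereas Srebf1 is best known for activating fatty acid synthesis.

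Libraries held 4151691 to 4688196 counts in the trSrebf1 group and 3675146 to 4134354 in the control group. Levels are given as CPM, tag counts scaled to a common library size with TMM factors, and 1 count was worth 0.215 to 0.254 CPM in trSrebf1 libraries and 0.236 to 0.262 CPM in control libraries. The assay, 3'SAGE-seq, counts tags near the 3' end of a transcript, so CPM values carry no scaling by transcript length and are compared between groups within a gene. Srebf1 itself had 28.6, 31.2 and 24.7 CPM in trSrebf1 libraries and 8.39, 5.16 and 7.78 CPM in control libraries. Whether the transgene adds to its tags could not be read from the tables. Fibroblast markers were abundant, with 8 of 8 markers detected and sums of 20360 to 23290 CPM in trSrebf1 and 28780 to 33770 CPM in control libraries. Of the genes for the sorted-out surface proteins, Ptprc matched no row, Pecam1 and Epcam had 1 and 2 counts over all 6 libraries, and Mcam had 20.

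Of the 34 members, 30 passed the filter on low counts and were tested in a fit over 10194 genes. In trSrebf1 fibroblasts 4 members were higher (Ppard, Acox3, Cpt1a and Cpt1c) and 3 were lower (Decr1, Acadvl and Etfb) than in control fibroblasts, by edgeR's quasi-likelihood test at a Benjamini-Hochberg adjusted p under 0.05. That is 13.3% of the tested members higher, against 17.2% of all tested genes, and 10% lower, against 13.0% of all tested genes. Counted in either direction, 7 members or 23.3% were called, against a background of 30.2%. The members' median log2 fold change was -0.08, and that of all tested genes was -0.013. The 3 trSrebf1 libraries all lay on one side of the 3 control libraries for 11 of 30 members, 36.7%, against 43.4% of all tested genes. The count of higher members was 2 without trSrebf1 replicate 1, where Ppard and Acox3 were called. In bulk samples fewer cells of a type and less RNA per cell cannot be told apart, here and in every comparison that follows.

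**Figure D1:**
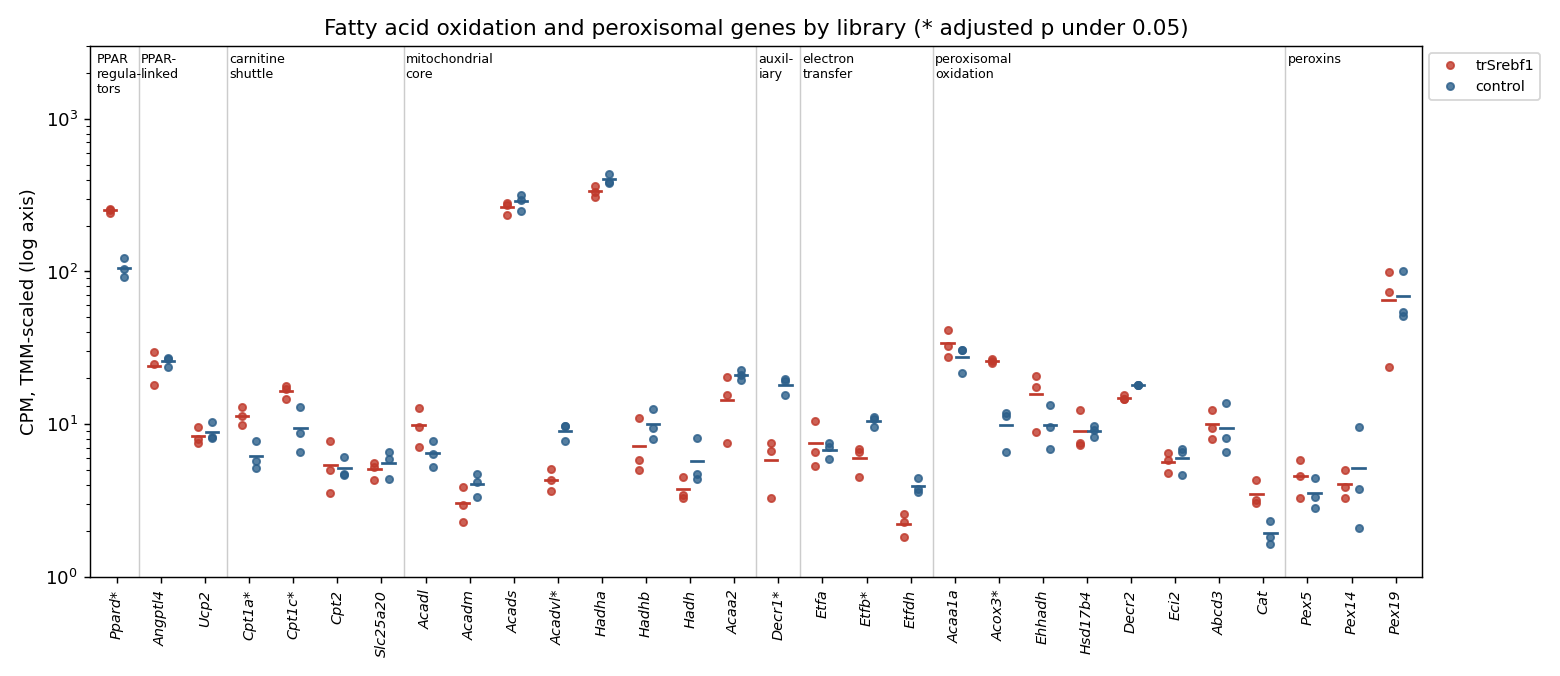
CPM on a log axis for the 30 tested members in each library, grouped by role. Points are libraries, red for trSrebf1 and blue for control, short bars are means, and a star marks an adjusted p under 0.05. Ppard and Acox3 stand above control in every trSrebf1 library, and Decr1, Acadvl and Etfb stand below it.

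Promoters are shown for members that were called with a log2 change over 1 in size and that had an entry in RefSeq's table for GRCm38.p6, the build that mm10 names. They are the nuclear receptor gene Ppard and the peroxisomal oxidase gene Acox3, which were higher, and the mitochondrial dehydrogenase gene Acadvl, which was lower. Each stretch runs 5′ to 3′ on the strand of the gene, from 250 bases before the start site to 50 bases after it. Capitals mark matches to the motifs searched, on both strands. The stretches lie at chr17:28232504-28232803 on the plus strand, chr5:35582784-35583083 on the plus strand and chr11:70015379-70015678 on the minus strand.
Ppard: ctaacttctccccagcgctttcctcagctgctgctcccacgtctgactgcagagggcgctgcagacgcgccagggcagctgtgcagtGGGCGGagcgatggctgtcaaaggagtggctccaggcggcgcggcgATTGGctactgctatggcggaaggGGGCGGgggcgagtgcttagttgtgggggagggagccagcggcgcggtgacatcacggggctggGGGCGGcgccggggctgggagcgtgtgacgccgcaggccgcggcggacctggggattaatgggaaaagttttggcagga
Acox3: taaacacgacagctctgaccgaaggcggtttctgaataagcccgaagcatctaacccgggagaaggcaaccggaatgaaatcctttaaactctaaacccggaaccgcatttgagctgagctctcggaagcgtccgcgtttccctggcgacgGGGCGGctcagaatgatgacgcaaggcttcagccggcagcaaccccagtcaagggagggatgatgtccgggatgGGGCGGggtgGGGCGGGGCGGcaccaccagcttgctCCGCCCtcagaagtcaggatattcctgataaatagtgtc
Acadvl: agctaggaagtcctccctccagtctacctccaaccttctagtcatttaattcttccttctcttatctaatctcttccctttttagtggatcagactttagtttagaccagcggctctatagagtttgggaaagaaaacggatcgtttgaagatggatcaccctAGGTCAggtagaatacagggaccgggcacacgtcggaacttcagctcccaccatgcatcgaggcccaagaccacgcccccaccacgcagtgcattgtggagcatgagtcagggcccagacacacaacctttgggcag

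The motifs were the nuclear receptor half-site (AGGTCA), the full PPAR response element (2 such half-sites in direct repeat with any 1 base between them), the sterol regulatory element that SREBPs bind (TCACNCCAC), the E-box (CACGTG), the CCAAT box (CCAAT) and the GC box (GGGCGG). A full PPAR response element contains the half-site, so a match to it also counts for the half-site. The Ppard stretch held 3 GC boxes and 1 CCAAT box, read on the opposite strand. The Acox3 stretch held 5 GC boxes, and an overlapping pair of them forms the longest run in capitals. The Acadvl stretch held 1 half-site, whose initial base lies 87 bases before the start site, and no GC box. None of the 3 stretches held the sterol regulatory element, the E-box or the full PPAR element.

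Promoter entries were found for 28 of the 34 members, 31 stretches in all because some genes have several starts. The sterol regulatory element was present in 2 of the 31, those of Ucp2 and Ehhadh, and in 1.24% of 32851 promoters of the same length. The half-site was present in 5 of the 31 (Cat, Acadm, Cpt1c, Acadvl and Cpt1a) and in 16.3% of all promoters. The E-box and the full PPAR element were in 0 of the 31, against 7.15% and 0.0396% of all promoters. GC boxes were in 24 of the 31, against 35.7% of all promoters, and CCAAT boxes in 14 of the 31, against 37.4%. The promoters compared with were not limited to genes with counts in these libraries. A match describes letters in this window and no more.

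Ppard, which encodes the widely expressed receptor PPAR delta, was the member with the smallest p. It lies on chromosome 17 from 28232700 to 28301474 on the plus strand (GRCm38, GENCODE M21). It had 254, 242 and 257 CPM in trSrebf1 libraries and 123, 104 and 92.2 CPM in control libraries. The lowest trSrebf1 library therefore stood far above the highest control library. The mean was 251 ± 7.64 CPM in trSrebf1 and 106 ± 15.3 CPM in control fibroblasts (SD, n = 3 each), a ratio of 2.37. The log2 fold change was 1.24 (SE 0.12, edgeR adjusted p = 3.26e-07), and it stayed between 1.13 and 1.36 over 14 alternative settings. The related receptor Ppara, the main PPAR of liver, did not pass the filter, with 7, 0 and 7 counts in trSrebf1 libraries and 8, 5 and 7 in control libraries. Pparg, the adipocyte receptor, had 1 count over all 6 libraries.

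The PPAR-linked targets of the list did not pass the threshold. Angptl4, a secreted inhibitor of lipoprotein lipase and a much used readout of PPAR delta, had 24.7, 29.7 and 18.0 CPM in trSrebf1 libraries and 27.0, 26.8 and 23.6 CPM in control libraries. These ranges overlap, and the log2 fold change was -0.10 with a 95% interval of -0.51 to 0.32 (edgeR adjusted p = 0.758). Ucp2, a mitochondrial carrier, had 7.96, 9.64 and 7.54 CPM in trSrebf1 and 8.13, 10.3 and 8.26 CPM in control libraries. Its log2 fold change was -0.09 (interval -0.64 to 0.46, edgeR adjusted p = 0.835). It shares 305 exonic bases with Dnajb13 on the opposite strand, its 3' end among them, and Dnajb13 had at most 4 counts in any library. Pdk4, the kinase that turns off pyruvate dehydrogenase when fat is burned, was hardly detected, with 3, 5 and 5 counts in trSrebf1 libraries and 5, 2 and 3 in control libraries.

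In the carnitine shuttle the Cpt1 isoforms Cpt1a and Cpt1c were called higher, each losing its call in 4 of the 6 fits with 1 library left out, and Cpt1b was not tested. Cpt2 and Slc25a20 did not pass the test. Cpt1a (chromosome 19, 3322334 to 3385733, plus strand), the widely expressed isoform that sets the rate of entry, had 11.4, 12.9 and 9.82 CPM in trSrebf1 libraries and 5.77, 7.74 and 5.19 CPM in control libraries. Every trSrebf1 library was above every control library. The log2 fold change was 0.87 (SE 0.27, interval 0.30 to 1.44, edgeR adjusted p = 0.0212). The call was lost without trSrebf1 replicate 1 (edgeR adjusted p = 0.0529) or 2 (0.0675), and without control replicate 1 (0.0526) or 3 (0.0931) (0.0207 to 0.0931 across alternatives).

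Cpt1c (chromosome 7, 44959372 to 44974851, minus strand) is the isoform best known from neurons, where it resides in the endoplasmic reticulum and has little transferase activity. It had 17.9, 14.7 and 17.1 CPM in trSrebf1 libraries and 6.56, 8.77 and 12.97 CPM in control libraries. The groups did not overlap, although control replicate 3 came close to the lowest trSrebf1 library. The log2 fold change was 0.80 (SE 0.26, interval 0.26 to 1.35, edgeR adjusted p = 0.0237). The call was lost without trSrebf1 replicate 1 (edgeR adjusted p = 0.0791) or 3 (0.0607), and without control replicate 1 (0.0904) or 2 (0.0796), with values from 0.00617 to 0.0904 across alternatives. The 3' end of Cpt1c overlaps 6530437J22Rik over 116 bases on the opposite strand, and the sources used here do not say whether strand was used in counting. No row matched 6530437J22Rik.

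Cpt1b, the muscle isoform, had 1, 3 and 2 counts in trSrebf1 libraries and 1, 0 and 2 in control libraries, too few to test. Cpt1a made up 38.7%, 45.5% and 35.8% of all Cpt1 tags in trSrebf1 libraries and 45.8%, 46.9% and 27.8% in control libraries. The exact (Clopper-Pearson) 95% intervals of these shares all overlapped, the widest running from 31.4% to 60.8% in control replicate 1. Cpt2, which returns the acyl group to coenzyme A, had a log2 fold change of 0.08 (interval -0.65 to 0.82). The carrier Slc25a20 had one of -0.15 (interval -0.82 to 0.53), and both had overlapping libraries.

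**Figure D2:**
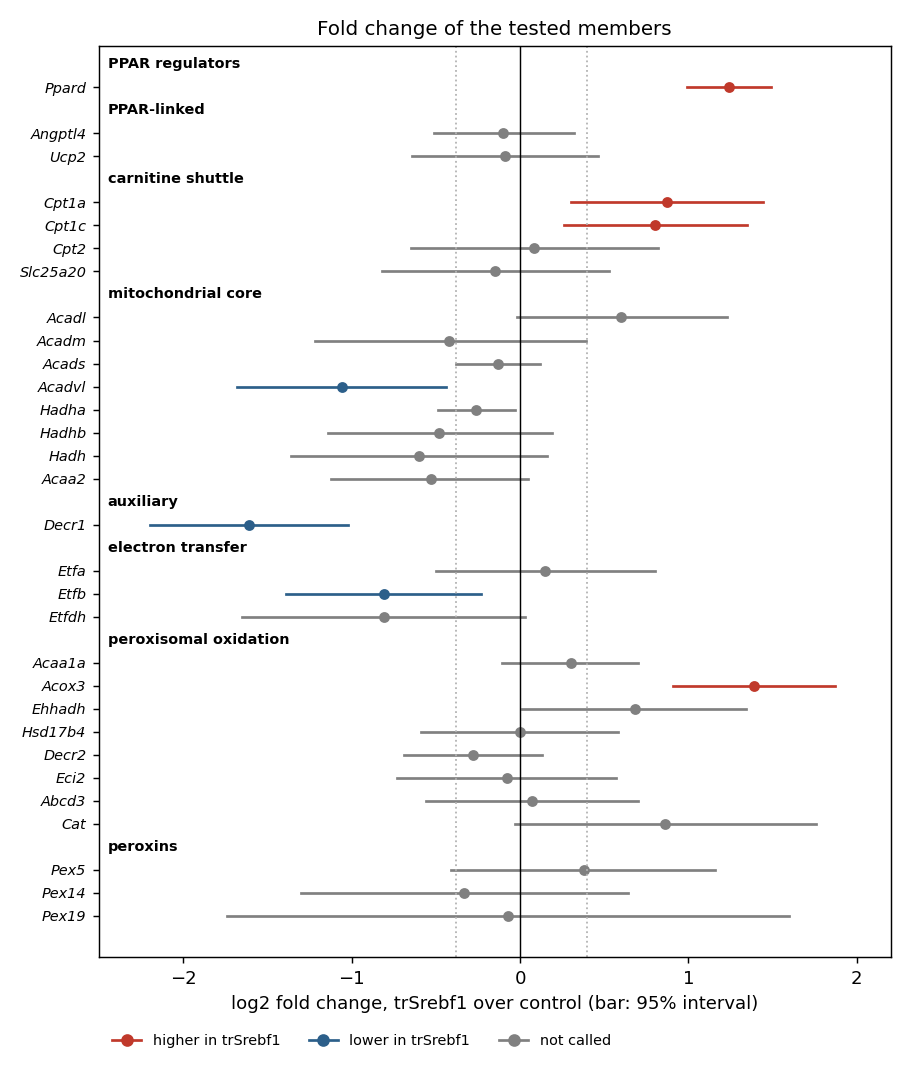
Log2 fold change of trSrebf1 over control for the 30 tested members, with 95% intervals as bars, ordered by role. Dotted lines mark the quartiles of all tested genes, at -0.38 and 0.40. Of the 12 tested mitochondrial matrix and electron transfer members 10 lie below 0, and of the 11 peroxisomal members 6 lie above it.

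Among the enzymes of the mitochondrial matrix and of electron transfer from acyl-CoA dehydrogenases, 3 of 12 tested members were lower and 0 higher. That is 25% and 0%, beside 13.0% and 17.2% of all tested genes. The 3 include Etfb, whose call was lost in 8 of 14 alternatives. These 12 pool several role groups. The beta-oxidation core alone had 1 of 8 lower, 12.5%, and 0 higher, with a median log2 fold change of -0.45. The median log2 fold change of the 12 was -0.50, beside -0.013 over all tested genes, and 10 of the 12 had a negative value. Decr1, Acadvl and Etfb passed the threshold. The remaining 9 did not, although for Hadha and Etfdh every trSrebf1 library lay below every control library.

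Decr1 (chromosome 4, 15917240 to 15945507, minus strand), the reductase needed to burn polyunsaturated fatty acids, showed the largest fall of the members tested. It had 6.67, 3.30 and 7.54 CPM in trSrebf1 libraries and 19.7, 19.1 and 15.6 CPM in control libraries. The mean was 5.83 ± 2.24 CPM in trSrebf1 and 18.1 ± 2.22 CPM in control fibroblasts (SD, n = 3 each), a ratio of 0.322. The log2 fold change was -1.61 (SE 0.28, interval -2.20 to -1.02, edgeR adjusted p = 2.32e-04), and it ranged from -1.83 to -1.34 over the alternatives. Eci1, the isomerase that handles unsaturated chains beside Decr1, did not pass the filter, with 8, 9 and 7 counts in trSrebf1 libraries and 10, 9 and 9 in control libraries.

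Acadvl (chromosome 11, 70010183 to 70015411, minus strand), the dehydrogenase for very long chains, had 4.30, 5.08 and 3.65 CPM in trSrebf1 libraries and 9.70, 7.74 and 9.67 CPM in control libraries. The groups did not overlap, and the log2 fold change was -1.06 (SE 0.29, interval -1.68 to -0.44, edgeR adjusted p = 0.0102). Over the alternatives its adjusted p ranged from 0.00616 to 0.0462. Its 3' end overlaps that of the signalling gene Dvl2 on the opposite strand, over 256 of the last 300 bases. Dvl2 had 83, 79 and 62 counts in trSrebf1 libraries and 16, 8 and 17 in control libraries, and rose by 2.33 on the log2 scale (SE 0.30, edgeR adjusted p = 9.84e-06). Without knowing the use of strand, tags from the overlap cannot be assigned to either gene, and the part of the overlap in the value of Acadvl was not tested.

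The other acyl-CoA dehydrogenases did not pass the threshold. Acads, for short chains, had 234, 282 and 274 CPM in trSrebf1 libraries and 295, 249.5 and 319 CPM in control libraries. With 6844 counts in all it had a narrow interval, -0.38 to 0.12 around a log2 fold change of -0.13. Acadm, for medium chains, gave -0.42 (interval -1.22 to 0.39). Acadl, for long chains, was the member of the core with a positive value, with 7.10, 9.64 and 12.8 CPM in trSrebf1 libraries and 5.24, 7.74 and 6.37 CPM in control libraries. Its log2 fold change was 0.60 (interval -0.02 to 1.23, edgeR adjusted p = 0.140).

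Hadha and Hadhb encode the subunits of the trifunctional protein, which carries out the later steps on long chains, and their start sites lie 86 bases apart on opposite strands of chromosome 5. Hadha had 333, 365 and 307 CPM in trSrebf1 libraries and 386, 383 and 435 CPM in control libraries. These groups did not overlap, but the log2 fold change was -0.26 (interval -0.49 to -0.03) and the edgeR adjusted p of 0.0792 missed the threshold. It passed with upper-quartile factors (adjusted p = 0.0321) and with total counts (0.0192), and its values ran from 0.0192 to 0.288 across alternatives. Hadhb gave -0.48 (interval -1.14 to 0.19), with 5.81, 10.9 and 5.02 CPM in trSrebf1 libraries and 9.44, 7.998 and 12.5 CPM in control libraries. The pair held 9128 and 212 counts over all libraries. Part of the 3' end of Hadhb, 166 bases, has near-identical copies in Gm13910 and Gm9108, which matched no row of the tables.

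Hadh, the dehydrogenase for shorter chains, and Acaa2, the thiolase of the final step, gave log2 fold changes of -0.60 (interval -1.36 to 0.16) and -0.53 (interval -1.12 to 0.05). Acaa2 had 20.4, 15.5 and 7.54 CPM in trSrebf1 libraries and 22.6, 20.9 and 19.6 CPM in control libraries. The trSrebf1 libraries spread widely, and without trSrebf1 replicate 1 Acaa2 was called at -0.87 (edgeR adjusted p = 0.0353), whereas without trSrebf1 replicate 3 it was -0.21 (edgeR adjusted p = 0.550).

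Etfb, a subunit of the electron transfer flavoprotein, had 4.52, 6.85 and 6.62 CPM in trSrebf1 libraries and 10.7, 9.55 and 11.1 CPM in control libraries. The groups did not overlap, and the log2 fold change was -0.81 (SE 0.27, interval -1.39 to -0.23, edgeR adjusted p = 0.0329). The call was lost under DESeq2 (adjusted p = 0.0736) and with no filter on low counts (0.0519). It was also lost without trSrebf1 replicate 1 (edgeR adjusted p = 0.142) or 3 (0.0524) and without control replicate 1 (0.0677), 2 (0.0517) or 3 (0.0876), and its values ran from 0.0193 to 0.142 across alternatives. The annotation places a transcript on the same strand, Gm45233, over its 3' end, so its tags may include those of Gm45233. Gm45233 matched no row, so no tags were counted under that symbol.

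Etfa, the partner subunit, had 10.5, 5.33 and 6.62 CPM in trSrebf1 libraries and 7.08, 7.48 and 5.90 CPM in control libraries, with overlap and a log2 fold change of 0.15 (interval -0.50 to 0.80). Etfdh, which passes the electrons on to ubiquinone, had 2.58, 2.28 and 1.83 CPM in trSrebf1 libraries and 4.46, 3.61 and 3.77 CPM in control libraries. Those libraries did not overlap, but at 76 counts in all the interval was -1.65 to 0.03 around -0.81 (edgeR adjusted p = 0.141).

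Of the 8 members of peroxisomal oxidation 1 was higher and 0 lower, 12.5% and 0%, beside 17.2% and 13.0% of all tested genes, with a median log2 fold change of 0.18. Acox3 (chromosome 5, 35583040 to 35615352, plus strand), an oxidase of branched-chain acyl-CoAs, had 26.7, 25.1 and 25.8 CPM in trSrebf1 libraries and 11.3, 11.9 and 6.61 CPM in control libraries. The trSrebf1 libraries lay close together and well above control. The mean was 25.9 ± 0.78 CPM in trSrebf1 and 9.92 ± 2.88 CPM in control fibroblasts (SD, n = 3 each), a ratio of 2.61. The log2 fold change was 1.39 (SE 0.23, interval 0.91 to 1.87, edgeR adjusted p = 1.28e-04), the largest rise of the members tested, and it ranged from 1.14 to 1.54 over the alternatives. Its 3' end shares 108 bases with 4931431C16Rik on the opposite strand, a gene with 1 count over all 6 libraries.

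Ehhadh, the bifunctional enzyme that follows the oxidase, had 17.6, 8.88 and 20.6 CPM in trSrebf1 libraries and 13.4, 9.55 and 6.84 CPM in control libraries. Replicate 2 of trSrebf1 fell within the control range and the other trSrebf1 libraries lay above it. The log2 fold change was 0.68 (interval 0.01 to 1.34) and the edgeR adjusted p was 0.119. Ehhadh was called without trSrebf1 replicate 2 (log2 fold change 0.95, edgeR adjusted p = 0.0157), without control replicate 1 (0.95, 0.0405) and when low counts were not filtered (0.68, 0.0430). Its adjusted p ran from 0.0157 to 0.398 across alternatives.

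Catalase (Cat), which breaks down the hydrogen peroxide that peroxisomal oxidases make, had 4.30, 3.04 and 3.20 CPM in trSrebf1 libraries and 1.83, 2.32 and 1.65 CPM in control libraries. Its groups did not overlap. With 69 counts in all the interval ran from -0.03 to 1.76 around a log2 fold change of 0.86 (edgeR adjusted p = 0.143).

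The other peroxisomal members were not called. The thiolase Acaa1a gave a log2 fold change of 0.30 (interval -0.11 to 0.70), and its 3' end is near-identical to that of Acaa1b over 286 bases, so tags may be split between the pair. Acaa1b, which is not among the 34, gave 0.08 (edgeR adjusted p = 0.868). Decr2, the peroxisomal counterpart of Decr1, had 14.6, 15.5 and 14.6 CPM in trSrebf1 libraries and 18.1, 18.1 and 18.2 CPM in control libraries. It had the tightest control libraries of the members, and its groups did not overlap, with a log2 fold change of -0.28 (interval -0.69 to 0.13, edgeR adjusted p = 0.314). The end of its transcript has near-identical stretches in 3 other genes, of at most 107 bases. The isomerase Eci2, the bifunctional enzyme Hsd17b4 and the membrane transporter Abcd3 gave -0.08, 0.00 and 0.07, with intervals inside -0.73 to 0.70. Eci2 shares a near-identical 3' end of 290 bases with Eci3, which had 2 counts over all libraries.

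Peroxins, the proteins that build peroxisomes, were not called. Pex5, the receptor that imports matrix enzymes, gave a log2 fold change of 0.38 (interval -0.41 to 1.16). Pex14, where that receptor docks, gave -0.33 (interval -1.30 to 0.64). Pex19, the chaperone for peroxisomal membrane proteins, had 72.9, 23.6 and 99.8 CPM in trSrebf1 libraries and 54.3, 101 and 51.4 CPM in control libraries. Its libraries differed more within groups than between them, with a standard deviation of 59.1% of the mean in trSrebf1 and 40.7% in control. Its interval was the widest of the members tested, -1.74 to 1.60. Replicate 2 was the low library in trSrebf1 and the high library in control. Pex14 also had its highest value, 9.55 CPM, in control replicate 2, against 2.098 and 3.77 CPM in the other control libraries.

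Of the 23 tested members that were not called, 12 had a 95% interval within 1 on the log2 scale in either direction, so a doubling or halving lay outside those intervals. For the other uncalled members the interval reached a change of that size. Of the 34 members 7 had under 100 counts over all libraries.

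**Figure D3:**
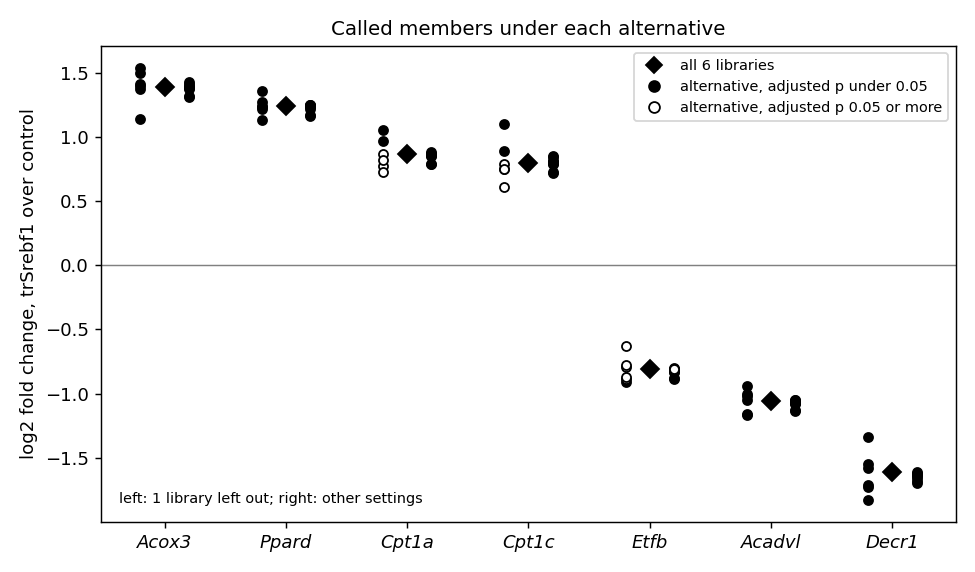
Log2 fold change of trSrebf1 over control for the 7 called members with all 6 libraries (diamonds) and under each of 14 alternatives (circles, left for 1 library left out and right for other settings). Filled symbols have an adjusted p under 0.05. Ppard, Acox3, Acadvl and Decr1 are filled throughout, and Cpt1a, Cpt1c and Etfb have open circles.

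Further genes were read from 5 lists: other mitochondrial enzymes, other peroxisomal proteins, other peroxins, PPAR partners and coactivators, and other PPAR-linked targets. The lists held 121 genes, of which 106 matched a row and 77 were tested. In trSrebf1 fibroblasts 20 of these were higher and 5 lower than in control, 26.0% and 6.49%, beside 17.2% and 13.0% of all tested genes. Their median log2 fold change was 0.22. Of the 20 higher genes, 7 were PPAR-linked targets and 3 were PPAR partners or coactivators. The mitochondrial, peroxisomal and peroxin lists gave 3, 4 and 3. The lists were written with earlier results of these data known, so their shares are descriptive only. Genes of these lists that are named without a call were picked for their role after their values were seen.

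Further mitochondrial enzymes had 3 of 20 tested genes higher and 2 lower, 15% and 10% beside 17.2% and 13.0% of all tested genes, with a median of 0.08. Slc25a29, a mitochondrial carrier of basic amino acids that was once described as a carnitine carrier, had 98.5, 87.6 and 85.0 CPM in trSrebf1 libraries and 33.0, 31.7 and 34.2 CPM in control libraries (log2 fold change 1.45, SE 0.14, edgeR adjusted p = 3.39e-07). Echs1, the hydratase of the cycle, rose by 0.53 (SE 0.11, edgeR adjusted p = 0.00157). Acad10 rose by 1.80 (SE 0.54) from low counts, and its call was lost without trSrebf1 replicate 1 (edgeR adjusted p = 0.0814), control replicate 2 (0.0798) or control replicate 3 (0.0747), and under DESeq2 (adjusted p = 0.0554). Acadsb and Ivd, dehydrogenases of branched-chain amino acid breakdown, fell by 0.91 (SE 0.14) and 0.88 (SE 0.32). The fall of Ivd lost its call without trSrebf1 replicate 1 (-0.50, edgeR adjusted p = 0.135) and without control replicate 1 (0.131), 2 (0.107) or 3 (0.0719). Acacb, whose product malonyl-CoA inhibits Cpt1, had 14.2, 23.6 and 31.98 CPM in trSrebf1 libraries and 13.1, 11.35 and 18.4 CPM in control libraries. These ranges overlap, and Acacb was not called (log2 fold change 0.69, edgeR adjusted p = 0.0722). Mlycd, which destroys malonyl-CoA, gave 0.07 and was not called.

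Further peroxisomal enzymes and membrane proteins had 4 of 21 tested genes higher and 2 lower, 19% and 9.52% beside 17.2% and 13.0% of all tested genes, with a median of 0.13. Abcd4, which now is known as a lysosomal cobalamin transporter, rose by 1.26 (SE 0.11, edgeR adjusted p = 1.10e-07), but its 3' end has near-identical sequence in several other genes, over up to 160 bases with Spc24. Idh1, which makes NADPH in the cytosol and peroxisomes, rose by 0.54 (SE 0.10), and the peroxisomal protease Tysnd1 by 0.49 (SE 0.11). Nudt19, a peroxisomal coenzyme A hydrolase, rose by 1.00 (SE 0.36, edgeR adjusted p = 0.0453). Its call was lost when any library other than control replicate 1 was left out (edgeR adjusted p from 0.0869 to 0.181), and without control replicate 1 its value was 1.62. It was also lost under DESeq2 (adjusted p = 0.0546), with upper-quartile factors (0.0650), with total counts (0.0541) and with Ctsd left out (0.0508). Scp2, the sterol carrier and thiolase, had 561, 484 and 543 CPM in trSrebf1 libraries and 1250, 1065 and 927 CPM in control libraries (log2 fold change -1.03, SE 0.12, edgeR adjusted p = 2.67e-06). Its 3' end is near-identical to that of a pseudogene, Scp2-ps2, over 300 bases. The peroxiredoxin Prdx5 fell by 0.70 (SE 0.16), and shares 409 exonic bases with Trmt112 on the opposite strand.

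Of the other peroxins 3 of 7 tested were higher and 0 lower, 42.9% and 0% beside 17.2% and 13.0% of all tested genes, with a median of 0.26. Pex16, which brings membrane proteins to the forming peroxisome, had 51.4, 50.2 and 46.1 CPM in trSrebf1 libraries and 13.6, 12.4 and 12.5 CPM in control libraries. That is a log2 fold change of 1.94 (SE 0.17, edgeR adjusted p = 9.71e-08). The docking protein Pex13 rose by 0.49 (SE 0.10).

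**Figure D4:**
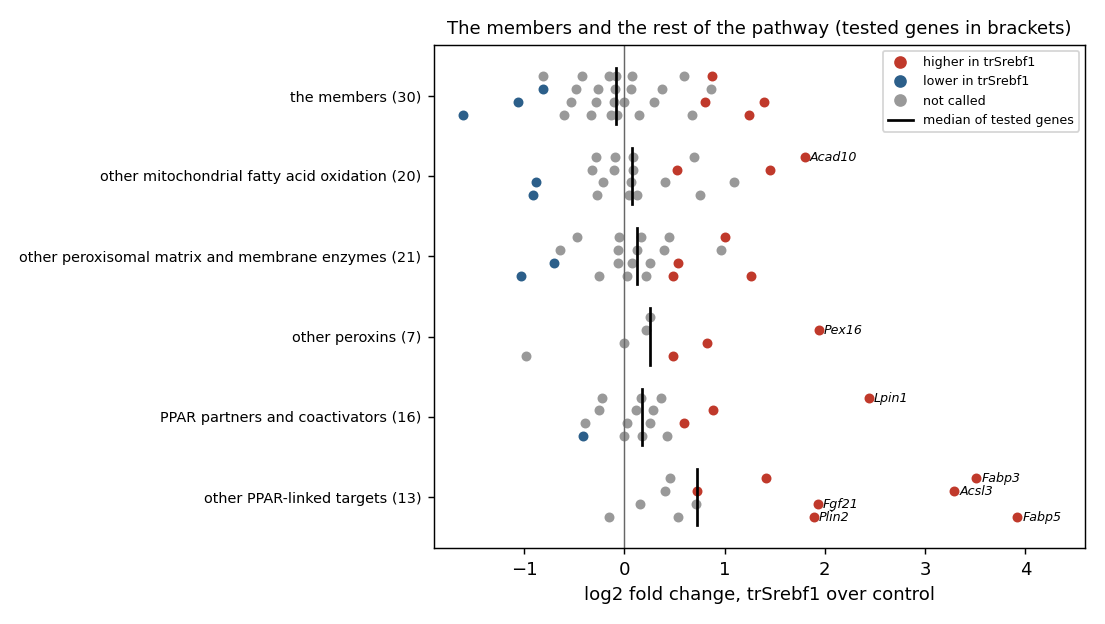
Log2 fold change of trSrebf1 over control for the tested members and the tested genes of the 5 other lists, with red for higher, blue for lower, grey for not called and a black bar for the median. The PPAR-linked targets outside the members reach 3.92 and have a median of 0.72, against a median of -0.08 for the members. Members and lists were chosen with earlier results of these data known.

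Partners and coactivators of the PPARs had 3 of 16 tested genes higher and 1 lower, 18.8% and 6.25% beside 17.2% and 13.0% of all tested genes, with a median of 0.17. The retinoid receptors Rxra and Rxrb, which pair with PPARs, gave 0.12 and -0.22 and were not called. Lpin1, a phosphatidate phosphatase that also acts as a coactivator, had 17.6, 10.9 and 17.8 CPM in trSrebf1 libraries and 2.62, 2.06 and 3.77 CPM in control libraries (log2 fold change 2.44, SE 0.32, edgeR adjusted p = 1.32e-05). Esrra, a receptor that activates mitochondrial genes, rose by 0.88 (SE 0.24), a call lost without trSrebf1 replicate 1 (edgeR adjusted p = 0.0572). The acetyltransferase Ep300 rose by 0.60 (SE 0.19), and its call was lost without trSrebf1 replicate 1 (edgeR adjusted p = 0.0978) or 3 (0.0584), without control replicate 1 (0.0621) and with total counts (0.0504). Nr1h3, which encodes LXR alpha, fell by 0.41 (SE 0.15, edgeR adjusted p = 0.0464). That call was lost without trSrebf1 replicate 1 (0.118) or 3 (0.151) and control replicate 1 (0.222) or 3 (0.0599), and under DESeq2 (0.0725) and limma-voom (0.0582). The coactivator Ppargc1a had 7 counts over all libraries.

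Other PPAR-linked targets had 7 of 13 tested genes higher and 0 lower, 53.8% and 0% beside 17.2% and 13.0% of all tested genes. The median of these targets was 0.72, while Angptl4, Ucp2 and Pdk4 among the members were not called or not tested. As the list of these targets was written with earlier results of these data known, its share is descriptive only. Whether PPARs had a part in it was not tested. The fatty acid binding proteins Fabp5 and Fabp3 had 13.1 ± 1.48 and 5.09 ± 1.14 CPM in trSrebf1 libraries and 0.85 ± 0.41 and 0.42 ± 0.39 CPM in control libraries (SD, n = 3 each). Their log2 fold changes were 3.92 (SE 0.38, edgeR adjusted p = 4.35e-07) and 3.51 (SE 0.60, edgeR adjusted p = 2.06e-04). With control counts of 0, 3 and 2, that of Fabp3 was 2.99 without control replicate 1 and 4.20 without control replicate 2. Acsl3, which activates fatty acids at lipid droplets, rose by 3.29 (SE 0.25) and the droplet coat protein Plin2 by 1.89 (SE 0.13). Fgf21, a secreted metabolic hormone, rose by 1.93 (SE 0.39), and G0s2, an inhibitor of triglyceride breakdown, by 0.72 (SE 0.13). Lipoprotein lipase (Lpl), the enzyme that Angptl4 inhibits, gave -0.15 and was not called.

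Markers of other cell types were low beside those of fibroblasts. Adipocyte markers summed to 0 to 0.645 CPM in trSrebf1 and 0 to 0.236 CPM in control libraries, with 2 of 7 markers matching a row and Adipoq and Plin1 among the 5 that did not. Muscle markers, 5 of 7 with counts, summed to 5.25 to 8.88 CPM in trSrebf1 and 2.84 to 6.37 CPM in control libraries, and Myh6 and Mb matched no row. Alveolar epithelial markers, 7 of 8 with counts, summed to 10.5 to 27.9 CPM in trSrebf1 and 13.4 to 21.2 CPM in control libraries. Macrophage markers, 7 of 10 with counts, summed to 1.72 to 3.20 CPM in trSrebf1 and 1.89 to 6.29 CPM in control libraries. Erythroid markers, 5 of 6 with counts, summed to at most 1.37 CPM in trSrebf1 and 0.708 CPM in control libraries. Endothelial markers, 6 of 7 with counts, summed to 10.5 to 13.3 CPM in trSrebf1 and 2.36 to 4.39 CPM in control libraries. Most of the endothelial sum came from Egfl7 and Esam, while Cdh5 had 1 count over all libraries and Emcn matched no row. Fibroblast sums lay lower and endothelial sums higher in every trSrebf1 library than in any control library. The fibroblast markers did not move together. Col1a2, Col3a1, Dcn, Lum, Pdgfra and Thy1 were called lower, Pdgfrb was called higher (log2 fold change 0.86) and Col1a1 was not called (0.12). The part of these marker differences in the changes above was not tested.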

How the data were processed

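Tag counts came from 3'SAGE-seq of polyA RNA on an Ion Proton, per the labels' protocols. The deposited tables give unnormalized tag counts by gene symbol, with a separate table for each library. The submitters' processing notes name Bowtie2 2.2.5 and mm10 but not how each was used. The sources used here do not give the counting tool, the annotation or the use of strand.

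Members and gene lists were chosen with earlier results of these data known. The test was that of edgeR 4.0.16, run in R 4.3.3 (TMM factors, filterByExpr with a minimum count of 10 and minimum total of 15, robust glmQLFit, glmQLFTest, prior count 0.125, group as the only term, two-sided). P-values were adjusted by Benjamini-Hochberg over all 10194 tested genes. The standard error is the log2 fold change divided by the square root of F, and intervals use the test's degrees of freedom. Members were all described, and of each other list up to 6 called genes per direction were named by p, except for some that are counted but not reported by name here. Alternatives were DESeq2 1.42.0, limma-voom (limma 3.58.1), other scalings and filters, Ctsd left out, a replicate block and 1 library left out. Positions are from GENCODE M21 (34 of 34 members matched). The last 300 bases of transcripts were compared with BLAST 2.17.0 (95% identity over at least 100 bases). Within groups, chi-square over its degrees of freedom was 4.52 to 8.13 for pairs of libraries, above counting noise. As tags were amplified, these values cannot tell separate samples from technical copies. Every library was kept in the fit. Intervals of shares reflect counting error alone, as tags were amplified and no molecular identifier is named in the labels.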

Additional observations from a re-analysis of the deposited data

How the results depend on the processing

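Over 14 alternatives, 15 of the 30 tested members kept both their direction and their side of the threshold in every setting that tested them, among them 4 of the 7 called members (Ppard, Acox3, Acadvl and Decr1). Leaving out 1 library at a time gave 2 to 4 members higher (2 without trSrebf1 replicate 1), 2 to 3 lower, and, of the further genes, 17 to 21 higher and 3 to 5 lower. Same-numbered libraries did not deviate together (correlations of 0.005, -0.112 and -0.054 for numbers 1, 2 and 3, and of the 6 libraries only control replicate 1 had its own number as its best match, at 0.005), so the numbers were not taken as pairs. With the number as a replicate block, 4 members were higher and 2 lower (Etfb at an adjusted p of 0.0505), the further genes called lower numbered 3 (without Ivd, at an adjusted p of 0.0692, and Nr1h3, at 0.0742), and 2820 of all genes were called, against 3083 without the block.

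Signs turned for 9 members, none of them called with all 6 libraries. With 1 library left out at a time the log2 fold change ran from -0.26 to 0.08 for Angptl4, -0.19 to 0.02 for Ucp2, -0.26 to 0.31 for Cpt2, -0.18 to 0.34 for Etfa and -0.28 to 0.14 for Hsd17b4. It ran from -0.24 to 0.04 for Eci2, -0.15 to 0.43 for Abcd3, -0.69 to 0.45 for Pex14 and -0.50 to 0.33 for Pex19. Upper-quartile factors gave 0.00 for Cpt2 and -0.01 for Abcd3, total counts -0.01 for Abcd3, and no filter on low counts 0.01 for Hsd17b4. The cause of these turns was not tested. Depth limits Ppara, Pdk4, Cpt1b and Eci1, which the filter removed.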
